A study of Homo sapiens with 8 samples.

Results

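OVCAR-3 is an established human ovarian carcinoma line derived from malignant ascites. It was measured on 2 of the 8 expression arrays of a study of 4 ovarian cancer lines. The members were the 2 arrays whose cell line label reads OVCAR-3, and they were set against the 6 arrays of SKOV-3, DOV-13 and CAOV-3. Each of the 4 lines gave 1 array from cells exposed to polyriboinosinic:polyribocytidylic acid (pI:pC, a synthetic double-stranded RNA) and 1 from untreated cells. All lines were grown in the same serum-containing medium, and the dose of pI:pC behind each treated array is not stated in the labels. Each line is 1 population of cells, and the labels do not say whether its 2 arrays came from separate cultures. The p-values therefore measure only the spread between these arrays after a treatment effect common to all lines. This spread may be technical or reflect differing responses of the lines to pI:pC, and these cannot be told apart.

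Ovarian carcinoma cells can keep an epithelial state, with cell-cell junctions built on cadherins and claudins, or take on a mesenchymal state, with vimentin, matrix proteins and cell motility genes. Serous carcinomas commonly carry the transcription factors of the Müllerian duct, such as PAX8, and shed the mucin MUC16, whose serum form is the tumour marker CA125. OVCAR-3 is used as a laboratory source of CA125 and is known for amplification of CCNE1, which encodes cyclin E1. Cyclin E1 activates CDK2 at the entry into S phase. DNA copy number was not measured in these data.

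Levels are log2 values, so that a difference of 1 is a 2-fold difference, and the median gene of the arrays stood at 6.72. A gene was called higher when OVCAR-3 exceeded each of the 3 other lines (the largest of 3 Benjamini-Hochberg adjusted limma p-values under 0.05, with treatment as a covariate) and both of its arrays lay above all 6 other arrays. A gene was called lower by the mirror rule. Differences are given as OVCAR-3 minus the mean of the other 3 lines, with the standard error (SE) of the same fit (n = 2 OVCAR-3 arrays and 6 others). With so few arrays the smallest exact permutation p over the 4 lines is 0.25, so the calls say that OVCAR-3 differs from these 3 lines, not from ovarian lines at large.

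Of 11963 genes, 1291 (10.8%) were called higher in OVCAR-3 and 1211 (10.1%) lower, and 9461 were not called. Without any test, 2075 genes (17.3%) lay higher in both OVCAR-3 arrays than in all others and 2064 (17.3%) lower. The same rule turned to the other lines called 1440 genes higher (12%) and 1135 lower (9.49%) in CAOV-3, 927 (7.75%) and 737 (6.16%) in SKOV-3, and 838 (7%) and 693 (5.79%) in DOV-13. OVCAR-3 and CAOV-3 thus had more genes beyond all other arrays than the other two lines had. Against 1 line at a time, OVCAR-3 differed in either direction at 51.8% of genes from CAOV-3, at 51% from SKOV-3 and at 49.6% from DOV-13. These comparisons share the OVCAR-3 arrays. The correlation across genes was 0.995 between the 2 OVCAR-3 arrays and 0.885 to 0.897 between an OVCAR-3 array and one of another line, a description in which the probes are shared. Taking the line as a random block left 136 genes higher (1.14%) and 71 lower (0.593%), and with 1 mean per line 5 remained higher (0.0418%) and 0 lower (0%), against 597 higher and 427 lower at an unadjusted p under 0.05.

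The called differences were mostly moderate. Among the genes called higher the median difference was 0.98, 629 differed by at least 1 and 34 by at least 4. Among those called lower the median was −0.96, 580 differed by at least 1 and 21 by at least 4. The median over all genes was −0.02. The treated and untreated OVCAR-3 arrays differed by at most 0.87 at any gene called higher and at most 0.98 at any called lower. The call rule itself favours genes with little change between these arrays. The median size of that change was 0.08 at genes called higher, 0.10 at those called lower and 0.09 over all genes.

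The genes that stood farthest above the other lines included membrane, transport and developmental genes that were near the bottom of the scale elsewhere. TMEM100, a transmembrane protein known in BMP-dependent vessel formation, had 11.02 in treated and 11.17 in untreated OVCAR-3 cells, against 3.64 to 3.84 (median 3.69) in the other arrays. Both OVCAR-3 arrays lay far above a tight cluster of the other 6, a difference of 7.39 ± 0.08 (SE, adjusted p = 1.9e-08). FLG, filaggrin, which bundles keratin in the outer epidermis, had 10.34 and 10.55 in OVCAR-3 against 3.59 to 3.77 (median 3.64). CA2, a cytosolic carbonic anhydrase, stood at 12.41 in each OVCAR-3 array and at 4.72 to 6.05 (median 5.47) elsewhere. No array of another line came within 6 log2 units of OVCAR-3 at these 3 genes. SLC34A2, the sodium-phosphate transporter NaPi2b and an antibody target in serous carcinoma, had 10.77 in treated and 10.74 in untreated OVCAR-3 cells against 4.62 to 4.88 (median 4.69), a difference of 6.04 ± 0.07 (SE).

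EMX2, a homeobox factor needed for the urogenital tract, had 9.73 and 10.04 in OVCAR-3 and 3.57 to 3.83 (median 3.70) in the other arrays. It was 1 of the 5 genes that remained higher with 1 mean per line, beside FLG, RGCC, SLC34A2 and TMEM100 (adjusted p = 0.045 for each). RGCC, a regulator of the cell cycle induced by complement, differed by 5.72 ± 0.07 (SE). GAS1, a membrane co-receptor for hedgehog ligands, differed by 6.29, the small GTPase gene DIRAS2 by 5.17 and the clock-related repressor gene BHLHE41 by 5.08. SIM1, PELI1, UPK1B, CDH6, BBOX1, LMO3, ERBB4, MEOX1, CXADR and KRT23, with MUC16, complete the 20 genes with the widest gap, with differences from 4.0 at ERBB4 to 5.58 at MEOX1. All 20 were still called with the line as a random block. MEOX1, a mesoderm homeobox factor, was at 10.47 and 10.36 in OVCAR-3 against 6.63 and 5.59 in CAOV-3 and 4.10 to 4.33 in the other 4 arrays.

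The genes farthest below the other lines included genes of matrix proteins, surface receptors and secreted factors. They were taken from called genes at or above the median gene in all 6 other arrays. NNMT, which methylates nicotinamide, had 4.36 in treated and 4.09 in untreated OVCAR-3 cells, against 10.70 to 12 (median 11.63) in the other arrays. The groups were separated by more than 6 log2 units, and the difference was −7.25 ± 0.09 (SE, adjusted p = 1.9e-08). CD44, the hyaluronan receptor, had 4.20 and 4.22 in OVCAR-3 against 10.03 to 11.69 (median 11.09). DKK1, a secreted Wnt antagonist, had 4.56 and 4.61 against 10.30 to 12.87 (median 11.68). SPARC, a collagen-binding matrix glycoprotein, had 5.07 and 5.40 against 11.15 to 11.66 (median 11.56). OVCAR-3 was below the median gene at all 4 genes.

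AXL, a receptor tyrosine kinase that binds GAS6, differed by −5.87 ± 0.10 (SE), with 5.03 and 5.23 in OVCAR-3 against 10.15 to 11.44 (median 11.26). F3, tissue factor, the cellular starter of coagulation, differed by −4.90, the microfibril protein gene MFAP5 by −4.77, the collagen cross-linking enzyme gene LOXL2 by −4.76 and the protease inhibitor gene SERPINE2 by −4.08. PHLDA1, DPYSL2, TGFBI, SGK1, PFKP, MT1X, MT1HL1, LGALS1, TPM2, FHOD3 and MT1H complete the 20, with differences from −5.73 at PHLDA1 to −3.08 at LGALS1. LGALS1, galectin-1, showed the gap at a high level, 9.80 and 9.70 in OVCAR-3 against 12.68 to 12.95 (median 12.88). With the line as a random block 18 of these 20 were still called, and SERPINE2 (adjusted p = 0.092) and TGFBI (adjusted p = 0.066) were not.

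**Figure D1:**
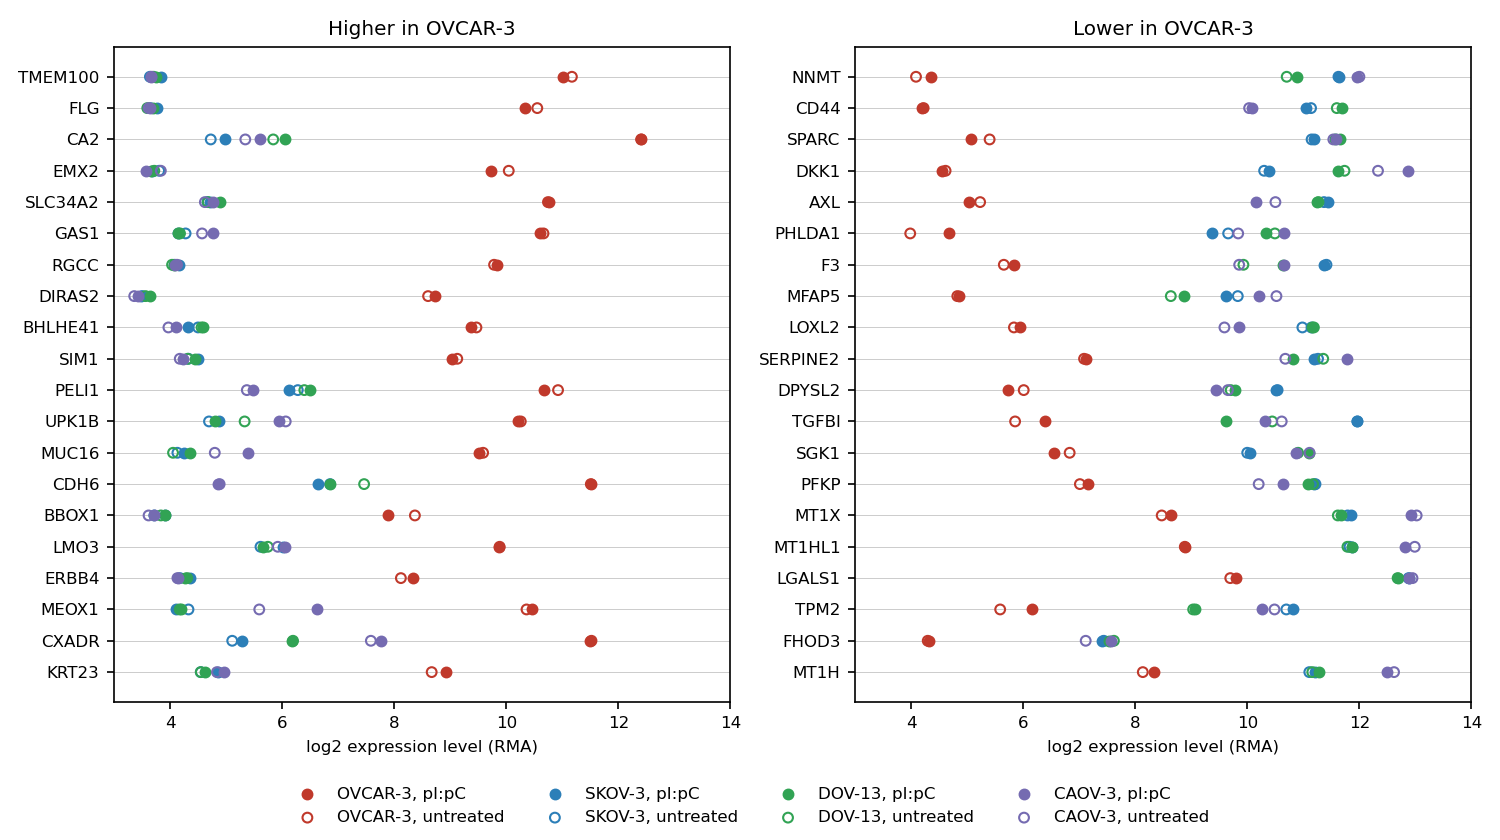
Log2 expression level (x axis) in each of the 8 arrays for the 20 genes called higher and the 20 called lower in OVCAR-3 with the widest gap to the other arrays (rows). Filled circles are pI:pC-treated and open circles untreated arrays, coloured by line. The call rule places the 2 OVCAR-3 points beyond all others in every row, for example at 11.02 and 11.17 against at most 3.84 for TMEM100.

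MUC16 and CCNE1 are the genes by which the line was to be recognised, a choice made with these data known, so their values check the label and support nothing further. MUC16 had 9.52 in treated and 9.59 in untreated OVCAR-3 cells against 4.05 to 5.38 (median 4.30) in the others, a difference of 5.06 ± 0.12 (SE). CCNE1 had 10.59 and 10.48 in OVCAR-3, against 8.95 and 8.32 in CAOV-3 and 7.54 to 7.91 in SKOV-3 and DOV-13. Its difference of 2.49 ± 0.14 (SE, adjusted p = 5.3e-05) did not pass with the line as a random block (adjusted p = 0.088). Both genes were highest in the arrays labelled OVCAR-3.

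Of 31 measured ovarian carcinoma markers and Müllerian factors, 14 (45.2%) were called higher and 0 lower, with a median difference of 1.09. Over all genes, 10.8% were called higher. SLC34A2, EMX2, CDH6 and MUC16 led the list, and MUC16 is counted among the 14 although it was chosen with these data known. CDH6, a cadherin of the embryonic kidney and of serous carcinoma, was at 11.51 in each OVCAR-3 array and at 4.85 to 7.46 (median 6.74) elsewhere. SPON1, a secreted matrix protein studied as an ovarian cancer marker, was chosen for mention after its values were seen: it had 13.00 and 12.96 in OVCAR-3, 11.52 and 11.41 in CAOV-3, and 6.56 to 8.05 in the other 4 arrays. SPON1 was thus high in CAOV-3 too, below OVCAR-3. With the line as a random block 7 of the 14 were still called.

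The transcription factors of this list separated the lines in different ways. PAX8 had 10.54 and 10.60 in OVCAR-3, 10.16 and 10.01 in SKOV-3, 8.63 and 8.73 in DOV-13, and 8.06 and 8.11 in CAOV-3. OVCAR-3 and SKOV-3 were neighbours in this order, and the difference of 1.62 ± 0.08 (SE) from the mean of the other lines was not called with the line as a random block (adjusted p = 0.36). WT1, the Wilms tumour factor found in serous carcinoma and mesothelium, had 6.94 and 6.78 in OVCAR-3 against 4.89 to 5.08 (median 5.04), above every other array. SOX17, an endoderm and Müllerian factor, had 9.59 and 9.62 in OVCAR-3, 7.36 and 7.55 in SKOV-3, 6.15 and 5.74 in DOV-13, and 4.41 in each CAOV-3 array.

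Other classical markers did not set OVCAR-3 apart. WFDC2, which encodes the serum marker HE4, had 9.85 and 9.62 in OVCAR-3 and 10.27 and 9.95 in CAOV-3, against 6.63 to 6.75 in SKOV-3 and DOV-13. FOLR1, the folate receptor alpha gene, differed by −0.06 ± 0.14 (SE), with 8.28 and 8.26 in OVCAR-3 inside the range of 7.82 to 8.53 in the other arrays, while its most variable probe set gave −1.13. MSLN, mesothelin, had 5.91 and 5.98 in OVCAR-3 inside 5.71 to 6.94, and ESR1, oestrogen receptor alpha, had 6.14 and 6.38 against 5.81 to 6.11 with a difference of 0.29 that was not called (adjusted p = 0.16). ESR1 has several probe sets and they did not share 1 sign.

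Around cyclin E1, 4 of 12 measured genes of the 19q12 neighbourhood were called higher (33.3%) and 0 lower, with a median difference of 0.28. CCNE1 itself, chosen with these data known, is counted among the 4, and 10.8% of all genes were called higher. URI1, a prefoldin-like chaperone gene beside CCNE1, had 12.12 in each OVCAR-3 array against 9.37 to 10.22 (median 9.74). POP4, a subunit of ribonuclease P, had 11.66 and 11.69 against 9.42 to 9.65 (median 9.53), and PLEKHF1, an endosomal adaptor, 7.78 and 7.58 against 6.91 to 7.26 (median 6.96). The 3 neighbours and CCNE1 were above all 6 other arrays, by 2.34 at URI1, 2.15 at POP4 and 0.66 at PLEKHF1 on average. URI1 and POP4 were still called with the line as a random block. UQCRFS1 was not analysed here.

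Of 32 genes of G1/S control, 8 (25%) were called higher, CCNE1 among them, and 2 (6.25%) lower, against 10.8% and 10.1% of all genes. The median difference was 0.01. CDKN2A, which encodes the CDK4/6 inhibitor p16, had 11.15 and 11.10 in OVCAR-3 and 10.18 and 10.21 in CAOV-3, against 6.48 to 6.69 in SKOV-3 and DOV-13. The 2 lines with high CDKN2A were close to each other, and the call was lost with the line as a random block (adjusted p = 0.31). CDKN1C (2.01), the imprinted p57 inhibitor, and E2F5 (1.67), a repressive E2F, were also called higher, although 1 of the 4 other probe sets of CDKN1C had the opposite sign. The 2 genes called lower were CCND3 (−1.55), cyclin D3, and CDK2 (−0.85), the kinase partner of cyclin E1, which had 8.62 and 8.72 in OVCAR-3 against 9.24 to 10.02 (median 9.32). None of the 10 genes was called with the line as a random block.

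The epithelial list was the one with the largest share of members called higher, 17 of 35 (48.6%), beside 10.8% of all genes. It had 0 lower and a median difference of 1.92. The other lines fell into separate levels here: the median difference of the list was 2.21 from SKOV-3 and 2.29 from DOV-13, against 0.47 from CAOV-3. By the contrast with 1 line at a time, OVCAR-3 was higher at 30 members than SKOV-3, at 31 than DOV-13 and at 20 than CAOV-3. Of all 11963 genes, it was higher at 2836, 2738 and 2997 by the same contrasts. DSC2, a desmosomal cadherin, had 8.84 and 8.89 in OVCAR-3 and 3.96 to 5.24 (median 4.59) elsewhere, a difference of 4.33 ± 0.15 (SE). DSC2 was low in CAOV-3 as well, and it was the only member of the list still called with the line as a random block.

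RAB25, a recycling GTPase of epithelia, had 8.93 and 9.18 in OVCAR-3, 8.22 and 8.23 in CAOV-3, and 4.39 to 4.70 in the other 4 arrays. SPINT1, an inhibitor of membrane serine proteases, followed the same order with 9.52 and 9.42 in OVCAR-3, 9.09 and 8.89 in CAOV-3 and 5.20 to 5.61 elsewhere. CDS1, a lipid-synthesis enzyme gene, did so too, with 10.06 and 10.09, 9.08 and 9.16, and 5.97 to 7.46, though its other probe set had the opposite sign. CDH1, E-cadherin, had 9.52 and 9.41 in OVCAR-3 and 9.49 and 9.70 in CAOV-3 against 3.58 to 3.96 in SKOV-3 and DOV-13, and was not called (adjusted p = 0.46 against CAOV-3). EPCAM, the epithelial cell adhesion molecule, had 12.11 and 11.90 in OVCAR-3, 12.55 and 12.58 in CAOV-3, 8.44 and 8.50 in SKOV-3, and 5.94 and 5.42 in DOV-13. At both genes OVCAR-3 and CAOV-3 stood together above the other two lines.

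On the mesenchymal list 16 of 35 measured genes (45.7%) were called lower and 1 higher, with a median difference of −1.68, beside 10.1% of all genes called lower. The median was −2.25 against DOV-13, −2.08 against SKOV-3 and −0.47 against CAOV-3. CD44, SPARC, AXL and VIM had the largest differences. VIM, the intermediate filament vimentin, had 5.80 and 5.30 in OVCAR-3 and 7.23 and 7.53 in CAOV-3, against 13.49 to 13.60 in SKOV-3 and DOV-13. Its difference from CAOV-3 was −1.84, and the call was lost with the line as a random block (adjusted p = 0.30), under which 7 of the 16 were still called.

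CDH2, N-cadherin, was ordered differently: 7.20 and 7.53 in OVCAR-3 lay above 6.06 and 6.36 in CAOV-3 and below 10.04 to 11.43 in SKOV-3 and DOV-13. The exception on the mesenchymal list was TNC, tenascin-C, a matrix glycoprotein of tumour stroma and wounds, named here because it was the 1 member called higher. TNC had 10.43 and 10.29 in OVCAR-3, 7.0 in treated and 4.61 in untreated CAOV-3 cells, and 4.59 to 4.77 in the other 4 arrays. Its level differed between the treated and the untreated CAOV-3 array, an effect of treatment was not tested, and both OVCAR-3 arrays lay above all of these.

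**Figure D2:**
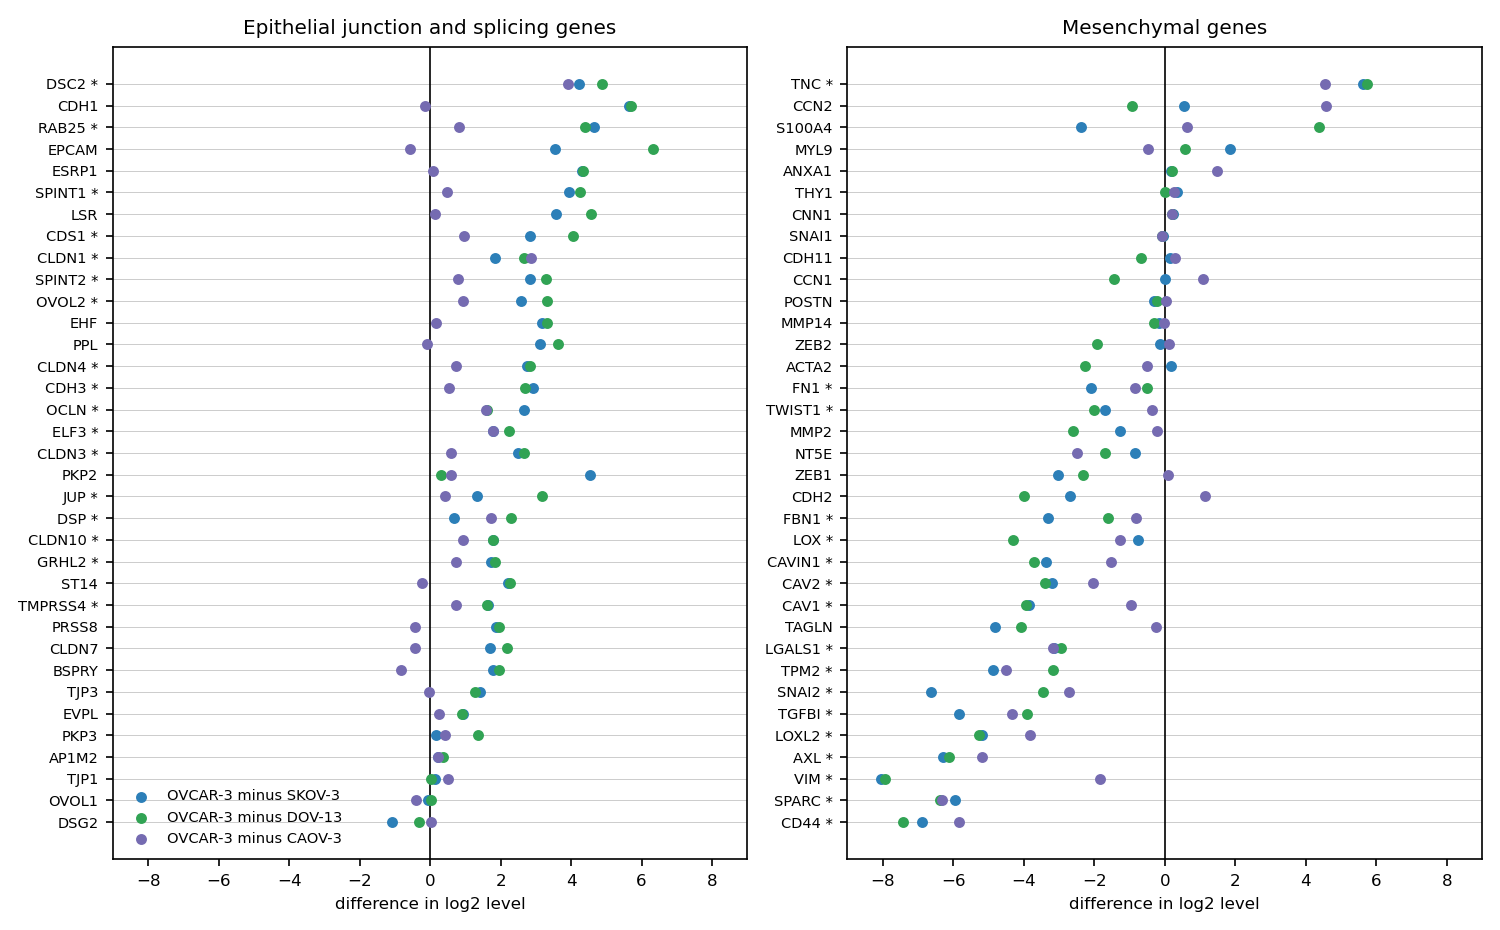
Difference in log2 level (x axis) of OVCAR-3 from SKOV-3, DOV-13 and CAOV-3, treatment-adjusted, for each measured gene (rows) of the epithelial and the mesenchymal list; an asterisk marks a called gene. The points for CAOV-3 lie nearer to 0 than the others at many genes, with medians of 0.47 and −0.47, whereas CD44, SPARC, AXL and DSC2 differ from all 3 lines.

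Of 30 collagen genes 2 were called higher and 2 lower (6.67% each, against 10.8% and 10.1% of all genes), with a median difference of −0.20. COL5A2 had 9.14 and 9.22 in OVCAR-3 against 4.75 to 7.33 (median 6.36), whereas COL5A1, which pairs with it in type V collagen, had 6.54 and 6.4 against 8.01 to 9.69 (median 8.56). The 2 chains of 1 collagen were thus called in opposite directions, by 3.01 ± 0.09 and −2.31 ± 0.14 (SE). COL21A1 differed by 1.32 and COL7A1, the anchoring fibril collagen, by −0.90. None of the 4 was called with the line as a random block (adjusted p = 0.13 for COL5A2 and 0.17 for COL5A1).

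Among 28 integrin and laminin subunits, 3 (10.7%) were called higher and 4 (14.3%) lower, shares near those of all genes. ITGB8, the β8 integrin that activates latent TGF-β, had 7.63 and 7.45 in OVCAR-3 against 4.39 to 4.77 (median 4.56). ITGB5 was higher by 1.94. ITGA3, a laminin receptor subunit, had 7.17 and 6.97 against 8.87 to 10.07 (median 9.42), and ITGA6, another laminin receptor subunit, had 7.84 and 8.02 against 8.72 to 11.05 (median 10.14). Both laminin-binding α subunits were below every array of the other lines. Of these, ITGB8 and ITGA3 were still called with the line as a random block.

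Of 18 keratins, KRT23 (4.07) and KRT4 (2.35) were called higher (11.1%, near the 10.8% of all genes) and 0 lower. KRT7, KRT8 and KRT18, the simple-epithelium keratins, were not called. Of 10 mucins 4 (40%) were called higher and 0 lower, against 10.8% and 10.1% of all genes, counting MUC16. MUC16 differed by 5.06 and MUC7, MUC3A and MUC5AC by 0.93, 0.82 and 0.65, the last 3 at 4.66 to 6.74 in OVCAR-3. The last 3 lay near or below the median gene in every array, the files hold no detection call for them, and probe sets of MUC3A and MUC5AC disagreed in sign. KRT23 and MUC16 were still called with the line as a random block, and KRT4 (adjusted p = 0.11), MUC7 (0.072), MUC3A (0.45) and MUC5AC (0.52) were not.

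Lineage transcription factors were called higher at 19 of 80 (23.8%, against 10.8% of all genes) and lower at 5 (6.25%, against 10.1%). The median difference was −0.005. SOX11, a neural and embryonic SoxC factor, had 9.23 and 9.31 in OVCAR-3, 6.22 and 6.10 in DOV-13, and 4.66 to 4.80 in SKOV-3 and CAOV-3. ZIC1, a zinc-finger factor of the neural plate, had 8.34 and 8.61 in OVCAR-3 and 7.45 and 7.80 in CAOV-3, against 4.15 to 4.57 elsewhere. SOX11 was separated from all other lines by about 3 log2 units, and ZIC1 only narrowly from CAOV-3. SOX2, a pluripotency and foregut factor (2.89), and MEIS1, a HOX cofactor (2.77), were singled out after their values were seen. With the line as a random block 4 of the 19 were still called, and 0 of the 5 lower ones, the largest of which was MSX1 (−2.04).

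Of 24 HOX genes 5 (20.8%, against 10.1% of all genes) were called lower and 1 (4.17%, against 10.8%) higher. The other 18 were not called, and the median difference was −0.20. HOXB6 had 4.88 and 4.53 in OVCAR-3, 6.62 and 6.19 in CAOV-3, and 9.05 to 10.20 in SKOV-3 and DOV-13. HOXB2 had 6.67 and 6.70 in OVCAR-3 against 8.03 to 10.06 (median 9.96), and HOXB7 8.17 and 8.23 against 9.35 to 10.36 (median 9.50). The 3 genes, with HOXB9 (−0.63), belong to the HOXB cluster and were below every other array, and the fifth gene called lower was HOXC5 (−0.40). HOXA2, a hindbrain patterning gene, was the 1 called higher, at 6.90 and 7.17 against 5.06 to 5.24 (median 5.16). Probe sets of neighbouring HOX paralogues can share sequence, so the split between them is uncertain, and only HOXA2 was still called with the line as a random block.

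Receptor tyrosine kinases were called higher at 4 of 47 (8.51%) and lower at 5 (10.6%), shares near those of all genes. ERBB4, the neuregulin receptor, had 8.33 and 8.12 in OVCAR-3 against 4.13 to 4.36 (median 4.22), a difference of 4.0 ± 0.08 (SE). MET, the hepatocyte growth factor receptor, had 7.74 and 7.58 against 10.30 to 12.28 (median 10.80), and IGF1R 5.32 and 4.82 against 6.83 to 8.55 (median 7.72), with probe sets of IGF1R that did not all agree. EGFR was lower by a smaller amount, 9.25 and 9.14 against 9.62 to 10.86 (median 9.68), again with other probe sets of differing sign. ERBB4 was therefore near the bottom of the scale in the other 3 lines, and AXL near it in OVCAR-3. ERBB2 was not called: 8.14 and 8.31 in OVCAR-3 lay among 8.05 to 8.65 in DOV-13 and CAOV-3 and below 10.81 and 10.70 in SKOV-3. Only ERBB4 and AXL of the list were still called with the line as a random block, and MET (adjusted p = 0.0504), IGF1R (0.15) and EGFR (0.55) were not.

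In the list of steroid receptors and oestrogen-responsive genes, 3 of 30 (10%) were called higher and 2 (6.67%) lower. Over all genes these shares were 10.8% and 10.1%. The 2 lower genes were NR3C1, the glucocorticoid receptor, and SGK1, a kinase gene that glucocorticoids induce. NR3C1 had 7.78 and 7.82 in OVCAR-3 against 9.83 to 11.15 (median 9.92), and SGK1 had 6.55 and 6.83 against 10 to 11.11 (median 10.89). Both were below every array of the other lines by more than 2 log2 units and were still called with the line as a random block. XBP1 (1.5), a factor of the unfolded protein response, and SIAH2 (0.92), a ubiquitin ligase gene, were higher.

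Oncofetal and imprinted genes were called higher at 4 of 21 (19%) and lower at 1 (4.76%), against 10.8% and 10.1% of all genes. HMGA2, an embryonic chromatin protein repressed by let-7 microRNAs, had 10.70 and 10.61 in OVCAR-3, 7.96 and 8.18 in DOV-13, 6.64 and 6.58 in SKOV-3, and 4.54 and 4.48 in CAOV-3. MEST, a paternally expressed imprinted gene, had 11.17 and 11.34 in OVCAR-3, 9.68 and 10 in CAOV-3, 7.37 and 7.51 in DOV-13, and 4.27 and 4.59 in SKOV-3. IGF2BP3, an RNA-binding protein of fetal tissue, had 10.43 and 10.45 in OVCAR-3, 9.32 and 9.51 in DOV-13, and 5.87 to 6.93 in SKOV-3 and CAOV-3. OVCAR-3 was at the top at all 3, but which line came next differed. HMGA1, a relative of HMGA2, was the 1 called lower (−1.66). None was called with the line as a random block.

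Wnt, TGF-β and BMP pathway genes were called higher at 13 of 61 (21.3%) and lower at 5 (8.2%), with a median difference of 0.05. The shares over all genes were 10.8% and 10.1%. Among ligands, WNT5A, a non-canonical Wnt, had 9.62 and 9.79 in OVCAR-3 against 4.95 to 7.70 (median 7.42). Among secreted antagonists the genes split: DKK1 differed by −6.96, while FST, follistatin, which binds activin, had 10.54 and 10.67 in OVCAR-3 against 6.93 to 7.51 (median 7.29). ID4, an inhibitor of bHLH factors and a BMP target, had 9.46 and 9.73 in OVCAR-3 and 5.37 in treated and 7.48 in untreated CAOV-3 cells. ID4 was at 7.04 and 7.20 in SKOV-3 and 4.18 and 4.08 in DOV-13. FST and DKK1 were still called with the line as a random block, with 1 further gene of the list.

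Antigen presentation and interferon-related genes were lower or not called. Of 23 MHC class I and II genes 6 (26.1%, against 10.1% of all genes) were called lower and 0 higher. The median difference was −0.50, and it was −1.31 against CAOV-3, −0.13 against SKOV-3 and −0.07 against DOV-13. HLA-F had 8.43 in treated and 8.10 in untreated OVCAR-3 cells against 9.24 to 12.01 (median 9.74), HLA-G 9.33 and 9.03 against 10.29 to 12.28 (median 10.48), and HLA-B 9.97 and 9.60 against 10.11 to 13.17 (median 11.07). TAP1, which loads peptides into the endoplasmic reticulum, had 6.89 and 6.02 against 7.50 to 10 (median 7.84). At all 4 genes the treated OVCAR-3 array was above the untreated one and below every other array, and CAOV-3 was the highest line. Probes for HLA genes can match several class I genes, so these values are not independent, and 0 of the 6 were called with the line as a random block.

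Of 44 interferon-stimulated genes 3 (6.82%) were called lower and 0 higher, against 10.1% and 10.8% of all genes. The median of the list was −1.94 against CAOV-3, but 0.66 against SKOV-3 and 0.33 against DOV-13. By the contrast with CAOV-3 alone, 30 members were lower and 0 higher, against 3199 and 2997 of all 11963 genes. Against SKOV-3 4 were lower and 14 higher (3266 and 2836 of all genes). Against DOV-13 6 were lower and 7 higher (3190 and 2738 of all genes). IFI16, a nuclear DNA sensor, had 4.57 and 4.48 in OVCAR-3, 5.40 and 5.73 in SKOV-3, and 9.03 to 9.86 in DOV-13 and CAOV-3. IFITM2 and IFITM3, membrane proteins that restrict virus entry, had 10.02 and 10.40 in treated and 9.27 and 9.41 in untreated OVCAR-3 cells, against 10.80 to 12.11 in the other arrays. None of the 3 was called with the line as a random block (adjusted p = 0.36 for IFI16, 0.16 for IFITM2 and 0.48 for IFITM3). The model gives all lines 1 treatment effect, so it does not describe lines whose levels change by different amounts with pI:pC. ISG15, singled out after its values were seen, had 11.21 in treated and 8.01 in untreated OVCAR-3 cells. Whether the change with pI:pC differs between lines was not tested. MAVS, the mitochondrial adaptor through which RIG-I and MDA5 signal after binding double-stranded RNA, had 5.07 and 5.02 in OVCAR-3 against 6.27 to 6.98 (median 6.74), a difference of −1.62 ± 0.09 (SE) that was not called with the line as a random block (adjusted p = 0.060).

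Of 25 BCL2 family genes and apoptosis inhibitors 6 (24%) were called lower and 1 (4%) higher, against 10.1% and 10.8% of all genes. The lower genes were on both sides of the apoptotic switch. BIRC2, the inhibitor cIAP1, had 8.60 and 8.66 in OVCAR-3 against 10.21 to 10.78 (median 10.57). PMAIP1, the BH3-only protein NOXA, had 8.63 and 8.26 against 9.51 to 11.15 (median 9.83), BIK 6.28 and 5.94 against 6.52 to 9.08 (median 6.84), and BAX 4.54 and 4.94 against 5.24 to 6.57 (median 5.53). CFLAR (−0.88) and BAD (−0.79) were the other two, and HRK (0.57) was the 1 called higher. None was called with the line as a random block.

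Drug transport and detoxification genes were called lower at 10 of 38 (26.3%) and higher at 2 (5.26%), with a median difference of −0.39. The shares over all genes were 10.1% and 10.8%. NQO1, a quinone reductase induced by NRF2, had 9.32 and 9.40 in OVCAR-3 against 11.25 to 11.69 (median 11.49). The aldehyde dehydrogenases ran in opposite directions: ALDH1A3 had 4.81 and 4.77 against 6.73 to 11.60 (median 8.29), whereas ALDH1A1 had 6.35 and 6.57 against 3.74 to 3.92 (median 3.84). AKR1C3, an aldo-keto reductase, had 4.16 and 4.45 in OVCAR-3, 4.61 to 6.07 in DOV-13 and CAOV-3, and 10.84 and 10.80 in SKOV-3, so its mean difference of −3.01 came chiefly from SKOV-3. With the line as a random block ALDH1A1 and NQO1 were among the 3 genes of the list still called.

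**Figure D3:**
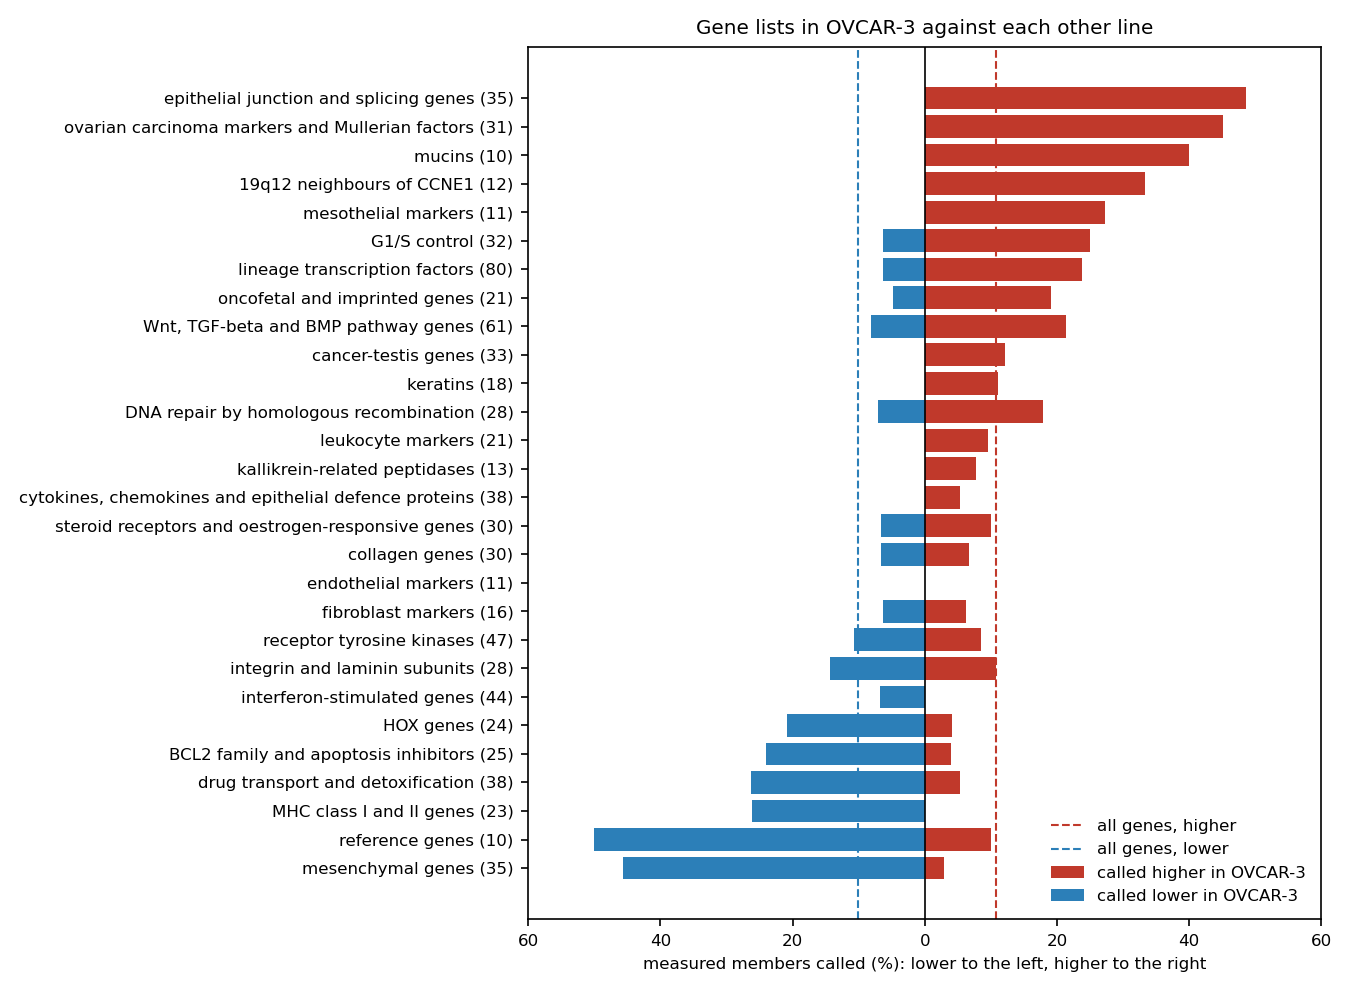
Share of measured members (x axis, percent) called higher (right) and lower (left) in OVCAR-3 for each of the 28 gene lists (rows, number measured in brackets); dashed lines give 10.8% and 10.1% for all genes. The epithelial (48.6%) and ovarian marker (45.2%) lists reach farthest to the right, and the reference (50%) and mesenchymal (45.7%) lists farthest to the left.

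Metallothioneins, small cysteine-rich proteins that bind zinc and copper and are induced by metals through the factor MTF1, formed the lowest run of neighbouring genes. The genes of each chromosome were put in the order of the RefSeq annotation, and the median difference was taken over each run of 9 consecutive measured genes. Over 11748 runs the 5th to 95th percentile was −0.48 to 0.44, and the metallothionein run on chromosome 16 was at −3.05. The RefSeq promoters of 3 of its called members are shown (GRCh38.p14, plus strand, 250 bases before to 50 after the gene's start). They let the reader see matches to the metal response element core in genes that were low together. Promoters of the called members MT1E, MT1F and MT1G were not in the RefSeq set used. Capitals mark each match, on either strand, to the metal response element core written as TGCACNC or TGCGCNC, and overlapping matches run together.
MT2A, chr16:56608334-56608633: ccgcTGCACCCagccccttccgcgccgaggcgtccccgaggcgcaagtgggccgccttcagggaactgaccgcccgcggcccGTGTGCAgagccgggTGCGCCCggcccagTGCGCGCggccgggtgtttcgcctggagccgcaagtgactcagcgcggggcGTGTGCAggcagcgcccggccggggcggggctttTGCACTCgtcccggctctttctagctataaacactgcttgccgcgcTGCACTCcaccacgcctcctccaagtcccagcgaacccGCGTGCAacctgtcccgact
MT1H, chr16:56669564-56669863: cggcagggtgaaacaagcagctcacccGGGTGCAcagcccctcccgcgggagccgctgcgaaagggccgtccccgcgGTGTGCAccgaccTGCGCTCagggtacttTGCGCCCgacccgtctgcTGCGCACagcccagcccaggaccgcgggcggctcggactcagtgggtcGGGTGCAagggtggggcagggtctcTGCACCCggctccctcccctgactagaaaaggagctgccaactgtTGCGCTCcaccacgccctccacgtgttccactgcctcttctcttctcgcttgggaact
MT1X, chr16:56682220-56682519: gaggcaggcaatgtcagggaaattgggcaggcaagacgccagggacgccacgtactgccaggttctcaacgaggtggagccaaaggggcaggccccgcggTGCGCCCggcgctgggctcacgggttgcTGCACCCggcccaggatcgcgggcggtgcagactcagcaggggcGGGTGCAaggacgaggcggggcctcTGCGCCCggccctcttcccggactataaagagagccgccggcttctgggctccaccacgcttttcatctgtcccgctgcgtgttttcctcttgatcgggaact
There were 8 matches in MT2A, 8 in MT1H and 4 in MT1X. The promoter of MT4, a member of the run that was not called, held 3, as did that of MT1B, which was not analysed. Of 35116 RefSeq promoters of the same length 29.6% held at least 1 match, 0.601% at least 4 and 0.0199% at least 8. A match is a description of letters, no binding was measured, and a relation of the matches to the levels was not tested.

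Of the 9 genes of this run, 6 were called lower in OVCAR-3. MT2A had 9.28 in treated and 9.54 in untreated OVCAR-3 cells against 12.27 to 13.19 (median 12.42), MT1X 8.64 and 8.47 against 11.62 to 13.02 (median 11.83), and MT1H 8.33 and 8.14 against 11.11 to 12.62 (median 11.24). MT1E (−3.56), MT1G (−3.05) and MT1F (−3.02) completed the 6, of which all but MT1F (adjusted p = 0.0504) were still called with the line as a random block. The OVCAR-3 arrays were about 3 log2 units below the next line at each gene given with its levels, and CAOV-3 was the highest line. MT3, MT4 and MT1M were not called. MT1HL1, a metallothionein gene on chromosome 1, had 8.88 in each OVCAR-3 array against 11.79 to 12.99 (median 11.87). Metallothionein transcripts are nearly alike, so probes may read several of them and the members are not independent, and probe sets of MT1G disagreed in sign.

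The highest run was on chromosome 19, from ZNF160 to CNOT3, with a median difference of 2.25. The change was abrupt within it: ZNF160, ZNF415, ZNF665 and ZNF813 were not called, and the next 5 genes in order were. PRPF31, a splicing factor gene, had 11.62 and 11.66 in OVCAR-3 against 9.23 to 9.57 (median 9.35). NDUFA3, a complex I subunit, had 11.83 and 11.91 against 9.26 to 9.87 (median 9.48), and CNOT3, a scaffold of the CCR4-NOT deadenylase, 8.22 and 8.18 against 5.48 to 5.95 (median 5.81). With ZNF331 (2.75) and TFPT (2.51), all 5 were higher by between 2.25 and 2.75 and were above every other array, and with the line as a random block all but ZNF331 (adjusted p = 0.051) were still called.

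On chromosome 3 the run from WDR5B to ITGB5 had a median of 1.90, and 7 of its 9 genes were called higher. KPNA1, a nuclear import receptor, had 10.26 and 10.25 in OVCAR-3 against 7.68 to 8.40 (median 8.0), and UMPS, which makes uridine monophosphate, 10.60 and 10.47 against 8.28 to 8.82 (median 8.68). HSPBAP1 was higher by 3.29, and MYLK and HACD2 were not called. On chromosome 21 the run from HSPA13 to TMPRSS15 had a median of 1.86 with 6 of 9 called higher. CXADR, the coxsackievirus and adenovirus receptor, was at 11.50 and 11.52 in OVCAR-3, 7.76 and 7.58 in CAOV-3, 6.17 and 6.19 in DOV-13, and 5.28 and 5.11 in SKOV-3. USP25 (2.28), a deubiquitinase gene that precedes it, and CHODL (3.03), which follows after 2 further genes, were called as well. With the line as a random block WDR5B, KPNA1, HSPBAP1 and UMPS were still called on chromosome 3, and CXADR, CHODL and TMPRSS15 on chromosome 21, but not USP25 (adjusted p = 0.053).

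The chromosome 12 run from PUS7L to AMIGO2, with a median of 1.76, was of another kind. Its median was 1.97 against DOV-13 but 0.59 against SKOV-3 and 0.75 against CAOV-3. SLC38A1, a glutamine transporter, had 11.26 and 11.24 in OVCAR-3, 9.54 and 9.62 in SKOV-3, 10.04 and 10.13 in CAOV-3, and 4.09 in each DOV-13 array. SLC38A2, a related transporter, had 11.51 and 11.56 in OVCAR-3, 9.81 and 9.71 in SKOV-3, 11.27 and 10.96 in CAOV-3, and 4.57 and 4.55 in DOV-13. DOV-13 stood far below the other 3 lines at both genes, and OVCAR-3 above SKOV-3 and CAOV-3. Neither was called with the line as a random block (adjusted p = 0.62 and 0.71).

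The next lowest runs were on chromosomes 20 and 10. CENPB to PRNP on chromosome 20 had a median of −1.58 and 7 of 9 genes called lower, MAVS among them. PRNP, the prion protein gene, had 8.59 and 8.61 in OVCAR-3 against 9.56 to 11.55 (median 11.42), and PANK2, a coenzyme A synthesis enzyme gene, 7.65 and 7.39 against 8.44 to 9.51 (median 9.31). IDI1 to AKR1C3 on chromosome 10 had a median of −1.24 with 4 genes called lower, and PFKP, platelet-type phosphofructokinase, was the one with the widest gap, at 7.15 and 7.01 against 10.20 to 11.22 (median 11.13). NMT2 to VIM, also on chromosome 10, had a median of −1.21 with 5 called lower. RSU1, a RAS suppressor gene, differed there by −2.82, though its other probe set had the opposite sign. None of the 7 genes called on chromosome 20 was still called with the line as a random block (adjusted p from 0.060 at MAVS to 0.49 at RNF24), and PFKP and RSU1 were the only ones in the runs on chromosome 10.

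**Figure D4:**
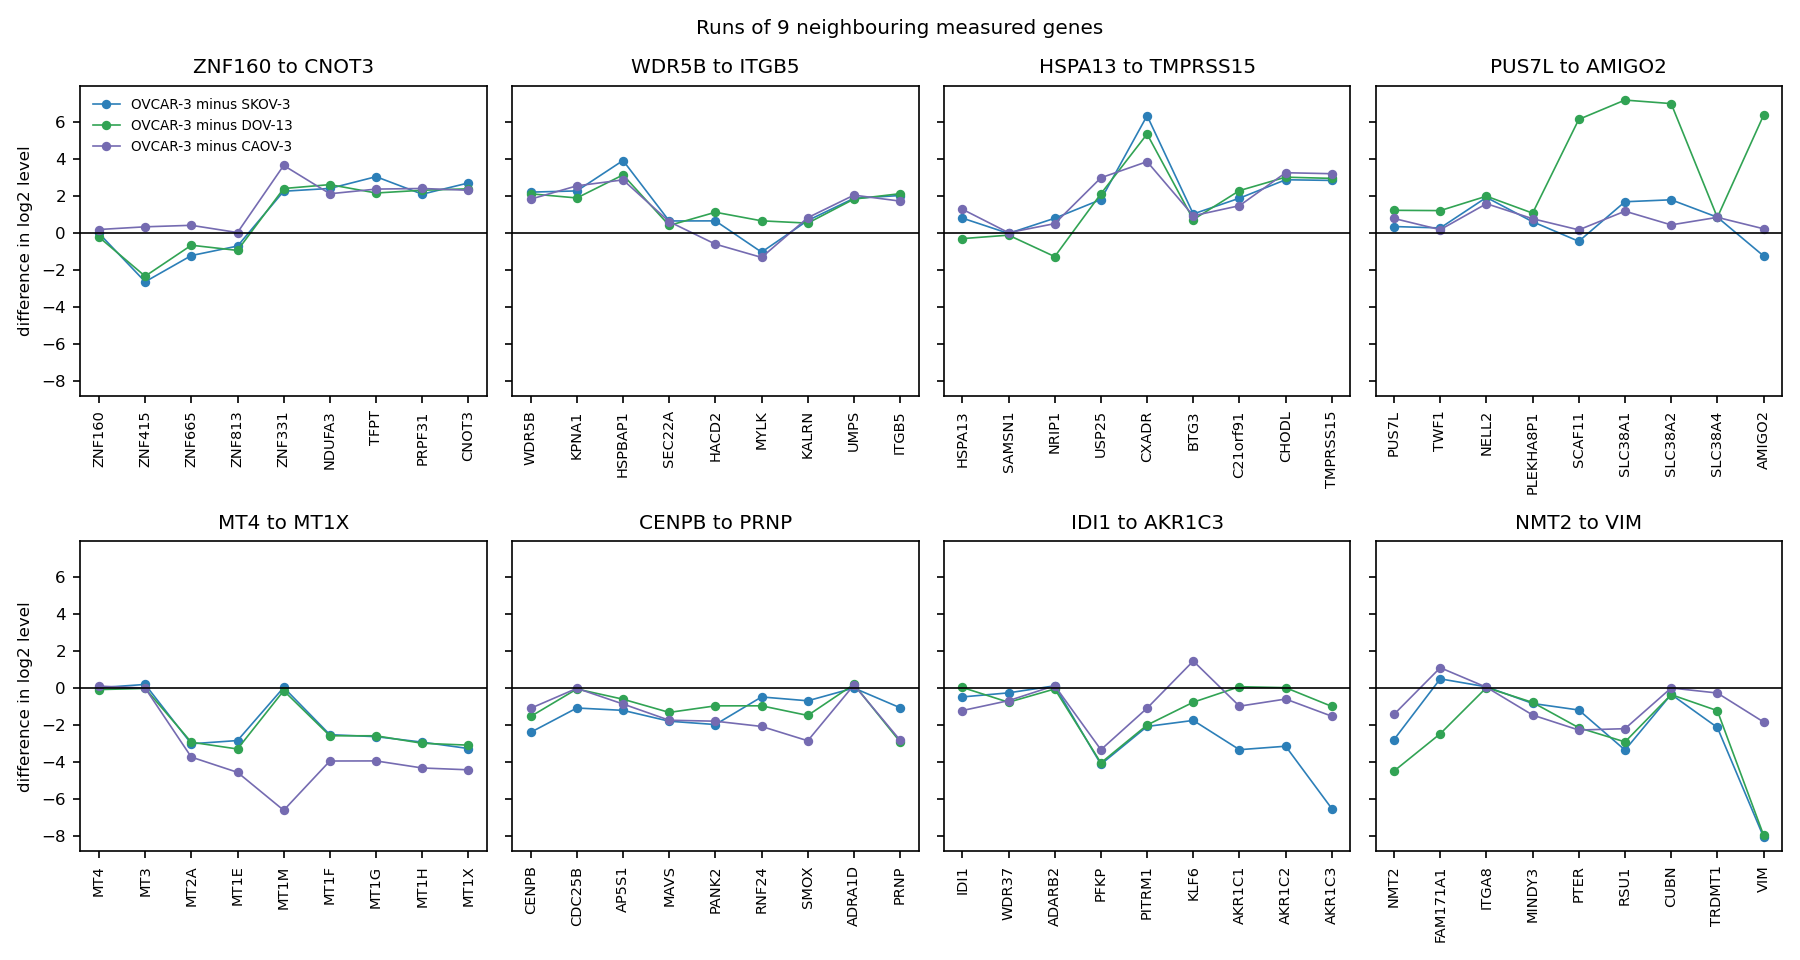
Difference in log2 level (y axis) of OVCAR-3 from each other line for the 9 genes, in genome order, of the 4 highest (top row) and 4 lowest (bottom row) runs; points of 1 line are joined. In the CNOT3 panel the differences from the 3 lines run close together over several genes. Over the metallothionein run the medians are −2.63 from SKOV-3, −2.58 from DOV-13 and −3.94 from CAOV-3. In the AMIGO2 panel 4 genes differ by more than 6 from DOV-13 and by less than 2 from the other lines.

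Markers of other cell types were mostly not called, but 2 of the 4 lists had summed levels outside the range of the other arrays. Of 21 leukocyte markers 2 (9.52%, against 10.8% of all genes) were called higher, CD8A (0.49) and ITGAX (0.35), at 5.36 to 5.76 in OVCAR-3. PTPRC, the common leukocyte antigen CD45, had 4.16 and 4.15 against 4.11 to 4.41. Summed on the linear scale, this list came to 872 to 899 in OVCAR-3 and 856 to 1035 in the other arrays. Of 11 endothelial markers none was called, against 10.8% of all genes called higher and 10.1% lower. Their summed levels were 426 to 437 in OVCAR-3 and 363 to 811 in the others. Of 16 fibroblast markers MFAP5 (−4.77) was called lower and TCF21 (0.32) higher (6.25% each, against 10.1% and 10.8% of all genes). The fibroblast sums were 746 to 776 in OVCAR-3 against 1378 to 2283. Of 11 mesothelial markers WT1, UPK1B and GPM6A were called higher (27.3%, against 10.8% of all genes), while MSLN was not called. The sums were 1649 to 1688 in OVCAR-3 and 502 to 1041 elsewhere. MFAP5, WT1 and UPK1B were the only ones of these still called with the line as a random block. The fibroblast sum was thus lower and the mesothelial sum higher in OVCAR-3, while the median differences of these lists were 0.11 and −0.06. UPK1B, at 10.20 and 10.26 in OVCAR-3 against 4.69 to 6.06 elsewhere, made up most of the mesothelial sum. The part of other cells in the calls was not tested. RMA values have no zero, so no marker can be said to be at 0.

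Of 10 reference genes commonly used as loading controls, 5 (50%) were called lower in OVCAR-3 and 1 (10%) higher, with a median difference of −0.30. The shares over all genes were 10.1% and 10.8%. GUSB had 7.91 and 7.96 in OVCAR-3 against 8.70 to 9.96 (median 9.05), and SDHA (−0.86), TBP (−0.68), HPRT1 (−0.56) and ACTB (−0.32) were lower as well. TFRC, the transferrin receptor, had 12.14 and 12.10 against 10.97 to 11.29 (median 11.10). None of these 6 changed sign when the arrays were quantile-normalised again or centred on their medians, but HPRT1 was not called under the first (adjusted p = 0.059) and ACTB under the second (adjusted p = 0.12). None was called with the line as a random block, under which the adjusted p was 0.24 for GUSB and 0.086 for TFRC.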

How the data were processed

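Labelled cRNA of treated and untreated cells of 4 ovarian cancer lines was hybridised to 8 Affymetrix arrays with 22277 probe sets. The deposited values are log2 expression levels, made by the authors with RMA per the submitters' processing notes. The version of RMA was not given in the sources used here, nor was a genome build. RMA understates differences of dim probe sets, and no scanner file, scan batch or detection call was used. Of the probe sets, 19064 carry 1 gene symbol in the platform annotation, 1043 several and 2170 none, 62 being controls. Each of 11963 genes was represented by its brightest probe set on average; 4310 genes have more than 1, and of 166 genes named by rule 77 do, with 1 sign in 68.

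limma 3.58.1 (R 4.3.3) was fitted with cell line and treatment as terms (3 residual and 4.41 prior degrees of freedom), with Benjamini-Hochberg adjustment over all genes within each of 3 contrasts. The number of arrays limits the precision. The error is the spread between the 2 arrays of a line after a common treatment effect. The script was tested on simulated data. Genes were named as the 20 with the widest gap in each direction (OVCAR-3, or for lower genes all other arrays, at or above the median gene), the 4 largest called members of each of 28 lists, 22 by name, and called genes of the neighbouring runs, with those chosen later marked as such or named because a list had few called members. The OVCAR-3 arrays, the lists and the named genes were chosen with earlier results of these data known. Lists are described by counts and medians only. Gene order and promoter sequences come from RefSeq (GRCh38.p14). Alternatives changed the model, the unit of replication, the probe set, the level filter, the normalisation, the threshold, and the lines and arrays included.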

Additional observations from a re-analysis of the deposited data

How the results depend on the processing

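The counts of 1291 genes higher and 1211 lower in OVCAR-3 depended most on what was taken as the unit. With 2 groups and no line term they were 627 and 471, with the line as a random block (correlation 0.86) 136 and 71, and with 1 mean per line 5 and 0. Untreated arrays alone gave 6 and 0, and treated arrays alone 0 and 0 in limma, against 641 and 442, and 541 and 403, at an unadjusted p under 0.05. A required difference of more than 1 from each line left 217 and 118. Leaving out CAOV-3 gave 1995 and 2206, the rule then asking for 2 contrasts in place of 3. Leaving out 1 array at a time gave 942 to 1250 higher and 839 to 1175 lower. The balance of the directions moved with scaling: 1573 higher and 1003 lower with arrays centred on the median, and 1452 and 1107 after quantile normalisation. The remaining settings stayed within 1.5 times the counts, from 875 (genes at or above the median level) to 1646 (without SKOV-3) higher and from 827 (adjusted p under 0.01) to 1687 (without SKOV-3) lower. Of 204 called genes among those printed, 69 were still called with the random block, 98 with the required difference and 172 to 198 without 1 array, and 0 reversed in any setting. FOLR1, not called, changed from −0.06 to 0.012 with arrays centred on the median and 0.0042 without DOV-13; without 1 array it ranged from −0.17 to 0.049. The labels carry no replicate numbers. Each line gave 1 treated and 1 untreated array, and cell line and treatment are both terms of the main model.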

Other observations

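Further gene groups outside the account above are given beside the shares over all genes. Of 13 kallikrein-related peptidases 1 (7.69%) was called higher and 0 lower, against 10.8% and 10.1% of all genes. It was KLK8, a serine protease of epithelia, with 7.86 and 8.05 in OVCAR-3 against 5.21 to 6.63 (median 5.52) in the other arrays. Of 33 cancer-testis genes, normally restricted to germ cells, 4 (12.1%) were called higher and 0 lower, a share near the 10.8% of all genes. SSX1 was the highest of them, at 6.19 in treated and 7.01 in untreated OVCAR-3 cells against 4.34 to 4.56 (median 4.48). TEX15, SSX3 and PAGE4 differed by 0.94, 0.87 and 0.41 at levels below the median gene. Of 38 cytokines, chemokines and epithelial defence proteins, CCL20 (0.64) and CXCL3 (0.60) were called higher (5.26%, against 10.8%) and 0 lower. CCL20 had 5.38 in treated and 4.57 in untreated OVCAR-3 cells against 4.19 to 4.55. None of these 7 genes was called with the line as a random block (adjusted p from 0.11 at KLK8 to 0.79 at CCL20).

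Of 28 genes of homologous recombination 5 (17.9%) were called higher and 2 (7.14%) lower, against 10.8% and 10.1% of all genes. The median difference was −0.22. ATR, the kinase that answers replication stress, had 9.75 and 9.79 in OVCAR-3 against 7.67 to 8.89 (median 8.67), and EMSY, a BRCA2-binding protein, 5.88 and 6.05 against 4.16 to 5.24 (median 4.41). BRCA1 had 7.34 and 7.36 against 7.82 to 8.77 (median 8.49), and FANCI, of the Fanconi anaemia pathway, 8.08 and 7.93 against 8.33 to 9.64 (median 8.72). None of the 7 was called with the line as a random block.

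Among the genes called higher the nearest other line was CAOV-3 at 490, SKOV-3 at 403 and DOV-13 at 398. Among those called lower it was CAOV-3 at 517, SKOV-3 at 348 and DOV-13 at 346.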
